A study of Mus musculus with 42 samples.

Results

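Mammary tumours from mice carrying the c-Myc transgene of the FVB/N-Tg(WapMyc)212Bri line were compared in 2 groups defined by tumour number: tumours 638, 639, 640, 641 and 643 (5 tumours, 10 arrays) and tumours 653, 655, 656, 660, 662, 663, 664 and 665 (8 tumours, 16 arrays). These are 13 of the 21 tumours and 26 of the 42 arrays of the series. The labels describe 4 lines obtained by selection in living mice, with glandular growth, solid or comedo growth without or with spread to the lung, and spindle-cell (mesenchymal) growth, but they do not tie a tumour number to a line. All 13 tumours carry the same transgene, driven by the promoter of the whey acidic protein gene Wap, and each was measured on a pair of arrays, with the dyes exchanged, beside a common mouse reference RNA. No age, treatment or animal is given for a tumour, so p-values measure the spread between these tumours. The groups were chosen with measured values in view: both have low Vim, the gene of the mesenchymal intermediate filament vimentin. Vim lay between -4.81 (tumour 656) and -3.15 (tumour 639) in the 13 tumours, between -4.70 and -3.64 in tumours 667, 669 and 670, which are outside both groups, and between 0.26 (tumour 644) and 1.23 (tumour 646) in the other 5 tumours of the series. The tumour just inside the low range was therefore 639, and the tumour just outside it was 644. Values are log2 ratios of tumour to reference after subtraction of the array median, averaged over both arrays. The labels do not settle which dye carried the tumour, so the sign is the one that makes the mean of Krt8, Hba-a1 and Dbi positive on every array. If that sign were turned, every value and difference below would change sign.

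Myc is a transcription factor that drives ribosome production, nucleotide and polyamine synthesis and cell division, and under the Wap promoter it is expressed in the secretory (luminal) epithelium of the mammary gland. That epithelium makes milk proteins, seals its layer with claudins and keratins, and synthesises fatty acids through the enzymes controlled by Srebf1. Cells short of oxygen switch on glycolytic enzymes, Bnip3 and Vegfa, and cells that sense interferon switch on Isg15, the Ifit genes and antigen presentation. Bulk tumour RNA also holds RNA of macrophages, neutrophils, vessels and stroma, and in such samples fewer cells of a type and less RNA per cell cannot be told apart.

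Markers of the labelled tissue are described here and do not test it. Myc was 2.76 in tumour 638, 2.01 in 639, 1.65 in 640, 1.98 in 641 and 2.33 in 643, and in the 8 tumours it ran from 1.88 in tumour 663 to 3.33 in tumour 656 with a median of 2.12, so the groups overlapped and did not pass the test (difference -0.14 ± 0.27, adjusted p = 0.745). Krt8, a luminal keratin, was between 1.68 and 2.48 in tumours 638 to 643 and between 0.77 and 2.20 in tumours 653 to 665. It was not tested because it helped set the array sign, which makes positive values likely. In the tumours with higher Vim it ran from 2.28 in tumour 673 to 3.01 in tumour 649. Mesenchymal markers were low in both groups, which were chosen with low Vim in view. The mean was taken over those of 9 tested fibroblast and mesenchyme genes measured in each tumour. It ran from -3.27 to -2.05 in tumours 638 to 643 and from -2.88 to -2.02 in tumours 653 to 665.

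Measured probes numbered 8600 to 20722 per array, and the number of tumours limits the precision. Title numbers put tumours 638, 639 and 640 in slide run 1, tumours 641 and 643 in slide run 3, most of the 8 tumours in slide run 2, and 1 array each of tumours 660, 664 and 665 in slide run 3, while the labels do not say what a run is. The raw correlation between the arrays of a pair was below 0 for 12 of the 13 tumours and 0.074 for tumour 656. Over 4038 probes the mean correlation between tumours was 0.81 within tumours 638 to 643, 0.71 within tumours 653 to 665 and 0.49 between the groups, as a description of tumours that share a reference RNA. Tumour 656 had a mean correlation of 0.56 with the 5 tumours and 0.50 with the other 7. Tumours 641 and 643 had a mean correlation of 0.82 with tumours 638 to 640, across the change of slide run.

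Each tumour was also set against calls made without it. Over the probes called in the fit that left it out, tumour 656 lay nearer the mean of its own group at 50.6% of 1945 probes, tumour 643 at 57.2% of 1762 and tumour 639 at 65.8% of 1307. Tumour 653 followed at 73.2%, and the remaining 9 tumours lay nearer their own group at 87.1% to 94.7% of probes. Tumour 643 was divided by direction: it lay nearer its own group at 35.6% of the probes higher in the other 4 tumours and at 91.2% of the lower ones. Tumour 639 was divided the opposite way, at 85.9% of the higher and 53.5% of the lower probes. Tumours 656, 643 and 639 were thus the ones least like their group mean.

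**Figure D1:**
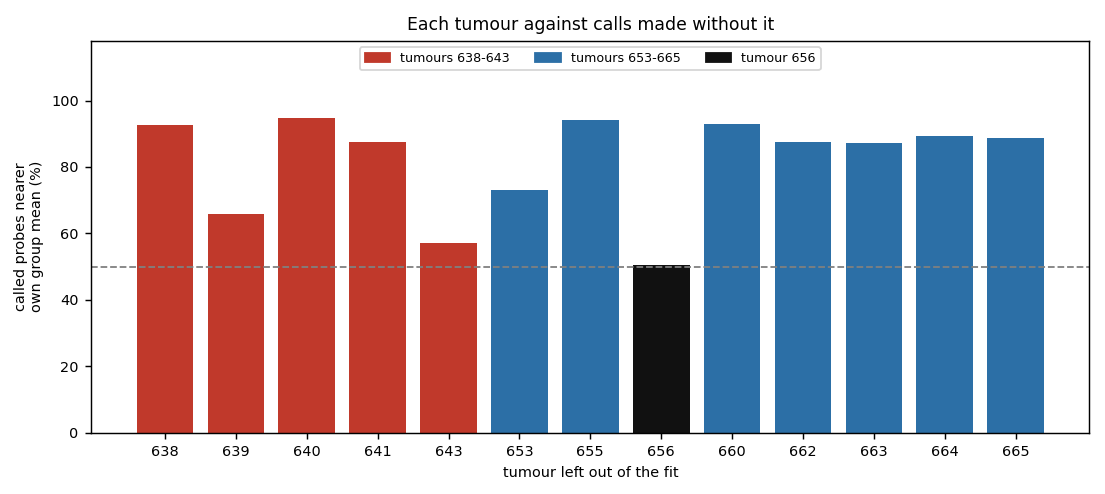
Percent of called probes at which each tumour lies nearer the mean of its own group (y axis, %) for the 13 tumours (x axis), with the calls taken from a fit that left that tumour out; the dashed line marks 50%. Tumour 656 is at 50.6%, tumour 643 at 57.2% and tumour 639 at 65.8%, and the other tumours are at 73.2% to 94.7%.

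Of 7766 probes tested with limma, 1635 (21.1%) differed between the groups at an adjusted p under 0.05, 823 (10.6%) higher and 812 (10.5%) lower in tumours 638 to 643. At an unadjusted p under 0.05 there were 2811. After averaging by gene, 1233 of 6452 genes (19.1%) differed, 711 (11.0%) higher and 522 (8.09%) lower. The median difference was 0.14 over probes and 0.21 over genes. Among 4979 probes with a value in all 13 tumours, the groups did not overlap with the first group higher at 149 (2.99%) and with it lower at 299 (6.01%). The split by direction rests on the subtraction of the array median. On the deposited scale without it, the median difference over probes was 0.74, and 3791 probes were called higher and 438 lower. Differences below are means of tumours 638 to 643 minus means of tumours 653 to 665 on the log2 scale, ± SE, over 5 and 8 tumours unless a missing tumour is named, with limma's Benjamini-Hochberg adjusted p.

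**Figure D2:**
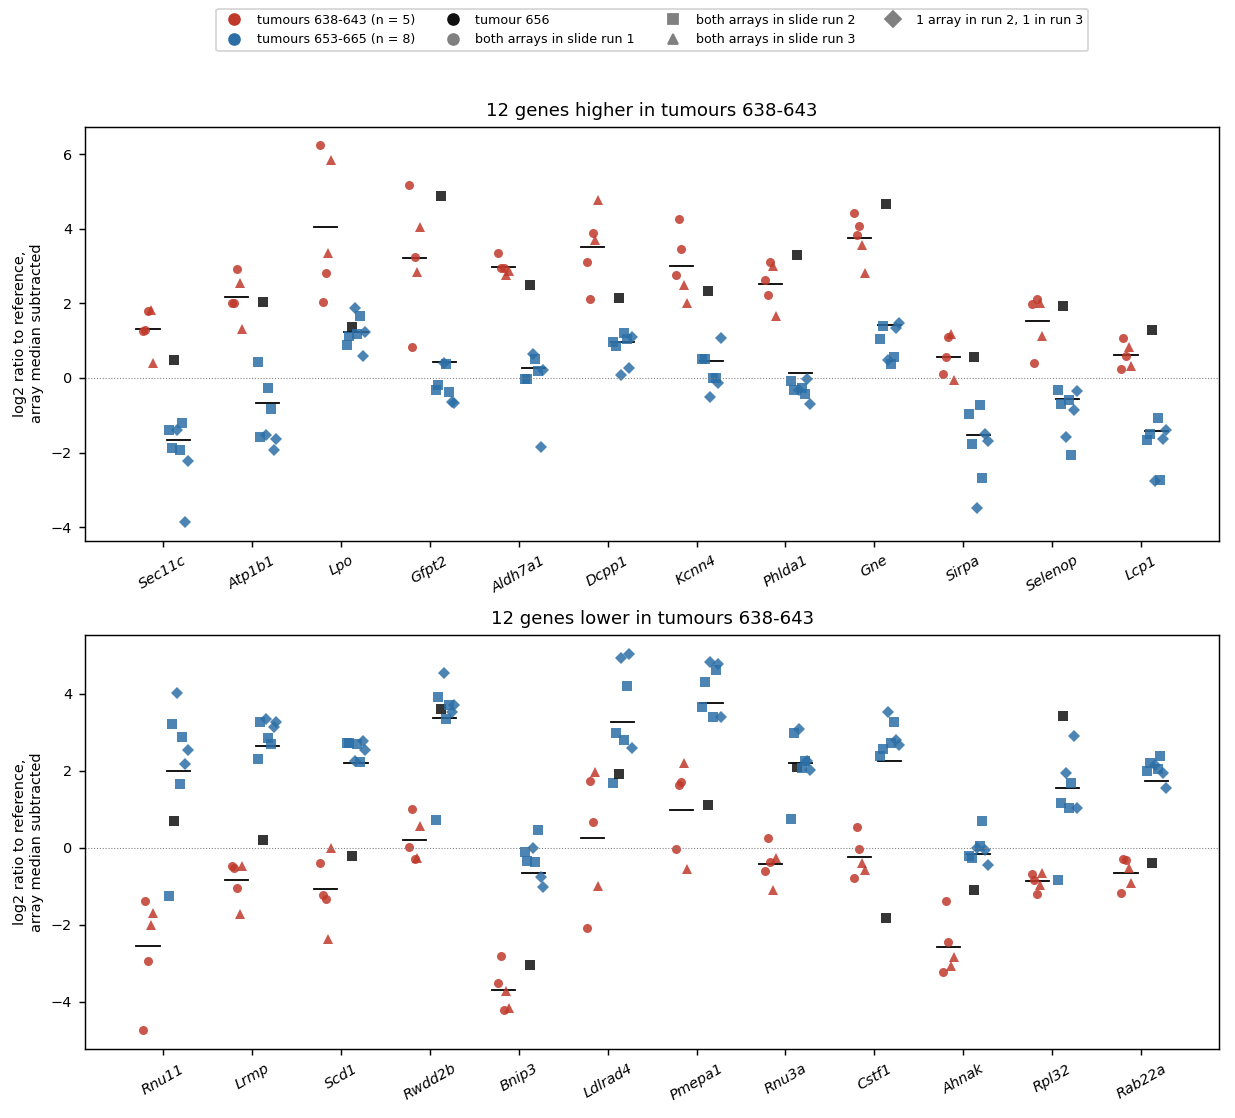
Values of the 24 named genes with the largest differences (y axis, log2 ratio to the reference after subtraction of the array median) in each of 13 tumours, with 12 genes higher and 12 lower in tumours 638 to 643; each symbol is a tumour, its shape the slide run and each bar a group mean. Tumour 656 (black) lies among or beyond tumours 638 to 643 for genes such as Gne, Phlda1 and Scd1.

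Several of the largest upward differences were in secretory genes. Lpo, a peroxidase secreted into milk and saliva, was 6.23 in tumour 638, 2.03 in 639, 2.80 in 640, 3.35 in 641 and 5.85 in 643. In the 8 tumours Lpo ran from 0.59 in tumour 664 to 1.86 in tumour 660 with a median of 1.20, so the groups did not overlap, and the difference was 2.82 ± 0.58 (adjusted p = 0.00331). Csn3, the gene of the milk protein kappa-casein, was 9.07 in tumour 638, 5.08 in 639, 5.57 in 641 and 6.52 in 643, with tumour 640 missing, and ran from 2.93 in tumour 662 to 4.55 in tumour 663 with a median of 3.70 over 6 tumours of the second group, with tumours 656 and 660 missing. These groups did not overlap either, and tumour 638 had the highest value of all (difference 2.81 ± 0.64, adjusted p = 0.0103). Folr1, a folate receptor, was higher by 1.10 ± 0.27 (adjusted p = 0.0109). Of 10 tested milk and secretion genes, 3 rose and none fell, beside 11.0% of all genes called higher, with a median difference of 0.54 beside 0.21 over all genes. Without centring 6 were called higher, as were 3791 of all 7766 probes. The remaining 7 did not pass, among them Csn2, the gene of beta-casein, at -0.43 ± 1.20 (adjusted p = 0.827).

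Car6, a carbonic anhydrase secreted by salivary and mammary glands, was 8.11 in tumour 638, 4.20 in 639, 7.54 in 640, 6.98 in 641 and 7.54 in 643. In the second group, where tumour 660 is missing, Car6 ran from -0.75 in tumour 664 to 10.52 in tumour 656 with a median of 1.17, and the 6 tumours other than 656 lay between -0.75 and 1.44. Tumour 656 was thus above all 5 tumours of the first group. The difference was 5.01 ± 1.54 (adjusted p = 0.0341) with tumour 656 and 6.45 (adjusted p = 7.06e-05) without it, and the call was lost when any 1 of 10 of the other tumours was left out. Dcpp1, a protein of salivary demilune cells, was 3.11 in tumour 638, 2.11 in 639, 3.89 in 640, 3.69 in 641 and 4.77 in 643, and it ran from 0.083 in tumour 660 to 2.15 in tumour 656 with a median of 1.00 in the second group. Tumour 656, at 2.15, was the only one of the 8 to reach the value of tumour 639, and the difference was 2.56 ± 0.40 (adjusted p = 0.00154). Mucl1, a small secreted mucin-like protein, was higher by 2.00 ± 0.45 (adjusted p = 0.00871), while Aqp5, the water channel of salivary acini, fell by 0.68 ± 0.22 (adjusted p = 0.0371). In all, 4 of 11 tested mucin and saliva genes rose and 1 fell, beside 11.0% of all genes called higher and 8.09% lower, with a median difference of 0.83. Without centring 7 were called higher, as were 3791 of all 7766 probes. Lpo counts in this list as well as in the milk list.

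Sec11c, Xbp1, Gne and Gfpt2 are described singly, since no list holds them together. Sec11c, a catalytic subunit of the signal peptidase complex, was 1.26 in tumour 638, 1.29 in 639, 1.78 in 640, 1.82 in 641 and 0.41 in 643. In the 8 tumours it ran from -3.86 in tumour 664 to 0.48 in tumour 656 with a median of -1.64, so only tumours 643 and 656 met, and the difference was 2.99 ± 0.51 (adjusted p = 0.00160). Xbp1, the transcription factor that expands the endoplasmic reticulum of secretory cells, was 1.83 in tumour 638, 2.00 in 639, 2.56 in 640, 2.73 in 641 and 1.35 in 643. Xbp1 ran from 0.45 in tumour 655 to 1.29 in tumour 660 with a median of 0.86 in the second group, without overlap, and the difference was 1.19 ± 0.25 (adjusted p = 0.00433). Gne, which catalyses the first step of sialic acid synthesis, was 4.43 in tumour 638, 3.84 in 639, 4.07 in 640, 3.55 in 641 and 2.81 in 643. Gne ran from 0.36 in tumour 662 to 4.66 in tumour 656 with a median of 1.19 in the second group, where the 7 tumours other than 656 did not exceed 1.48 (difference 2.33 ± 0.57, adjusted p = 0.00947). Gfpt2, which opens the hexosamine pathway, differed by 2.79 ± 0.85 (adjusted p = 0.0285). Gfpt2 reached 4.89 in tumour 656, and its call was lost when any 1 of 6 tumours was left out.

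Atp1b1, Kcnn4, Aldh7a1, Phlda1 and Selenop were also among the 12 genes with the largest upward differences. Atp1b1, the beta subunit of the sodium pump, was 2.00 in tumour 638, 2.02 in 639, 2.92 in 640, 2.55 in 641 and 1.31 in 643, and it ran from -1.93 in tumour 664 to 2.03 in tumour 656 with a median of -1.18 in the second group (difference 2.83 ± 0.56, adjusted p = 0.00266). Tumour 656 was the only one of the 8 within the first group. Kcnn4, a calcium-activated potassium channel, was 2.75 in tumour 638, 4.25 in 639, 3.45 in 640, 2.48 in 641 and 2.01 in 643, and ran from -0.50 in tumour 660 to 2.34 in tumour 656 with a median of 0.25. Tumour 656 again lay among the 5, above tumour 643, while the other 7 stayed at or under 1.06 (difference 2.52 ± 0.45, adjusted p = 0.00166). Aldh7a1, an aldehyde dehydrogenase of lysine breakdown, was 3.34 in tumour 638, 2.96 in 639, 2.95 in 640, 2.76 in 641 and 2.86 in 643, and it ran from -1.85 in tumour 664 to 2.49 in tumour 656 with a median of 0.20. Aldh7a1 was the most even of these genes in the first group, its groups did not overlap, and the difference was 2.71 ± 0.48 (adjusted p = 0.00161). Phlda1, a pleckstrin homology-like protein, and Selenop, a secreted selenium carrier, differed by 2.38 ± 0.54 (adjusted p = 0.00618) and 2.09 ± 0.51 (adjusted p = 0.00952), with tumour 656 at 3.30 and 1.92 respectively, inside or above the first group.

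All 10 tested genes of epithelial junctions and surface had positive differences, with a median of 0.57 beside 0.21 over all genes. Of these 3 passed, beside 11.0% of all genes called higher. The count without centring was 8, where 3791 of all 7766 probes were called higher. Grhl2, a transcription factor that maintains epithelial junction genes, was 3.50 in tumour 638, 1.25 in 639, 2.14 in 640, 2.53 in 641 and 4.37 in 643. In the second group Grhl2 ran from -0.21 in tumour 664 to 1.52 in tumour 655 with a median of 0.45, and tumours 639 and 655 overlapped (difference 2.28 ± 0.43, adjusted p = 0.00238). Cldn7, a claudin of lateral membranes, was 5.04 in tumour 638, 4.96 in 639, 4.41 in 640, 4.53 in 641 and 3.86 in 643, while in 7 tumours of the second group, with tumour 660 missing, it ran from 1.30 in tumour 656 to 3.56 in tumour 663 with a median of 3.35. Cldn7 did not overlap between the groups, and the difference was 1.58 ± 0.38 (adjusted p = 0.0105). Perp, a desmosomal membrane protein, differed by 1.15 ± 0.32 (adjusted p = 0.0204), with tumour 656 above the first group at 1.62. Without tumour 656 the count of epithelial genes called higher was 5, where 1126 of all 8283 probes were called higher, beside 823 of 7766 with it. Epcam, at 0.79 ± 0.30 (adjusted p = 0.0765), did not pass.

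Of 10 tested luminal lineage genes 9 had positive differences and 1 a negative one, with a median of 0.56. Among all genes tested 11.0% were called higher and 8.09% lower. Kit, a receptor tyrosine kinase of luminal progenitors, was 1.41 in tumour 638, 1.53 in 639, 2.59 in 640, 3.33 in 641 and 1.31 in 643, and it ran from -0.042 in tumour 664 to 1.99 in tumour 656 with a median of 0.13 in the second group, in which the 7 tumours other than 656 were at or under 0.40 (difference 1.67 ± 0.39, adjusted p = 0.00908). Krt19, a keratin of simple epithelium, went the other way. Krt19 was -2.76 in tumour 638, 0.17 in 639, -0.024 in 640 and 0.89 in 641, with tumour 643 missing, and it ran from 1.24 in tumour 665 to 3.01 in tumour 663 with a median of 2.02 in 7 tumours of the second group, with tumour 656 missing. The groups did not overlap, and the difference was -2.47 ± 0.57 (adjusted p = 0.00982). In this list 2 rose, Xbp1 and Kit, and 1 fell, and Gata3, Foxa1 and Esr1 did not pass, at 0.89 ± 0.34 (adjusted p = 0.0772), 0.36 ± 0.28 (adjusted p = 0.382) and 0.22 ± 0.44 (adjusted p = 0.759). None of 6 tested basal and myoepithelial genes passed, the nearest being Itgb4, an integrin subunit, at 1.75 ± 0.59 (adjusted p = 0.0519).

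**Figure D3:**
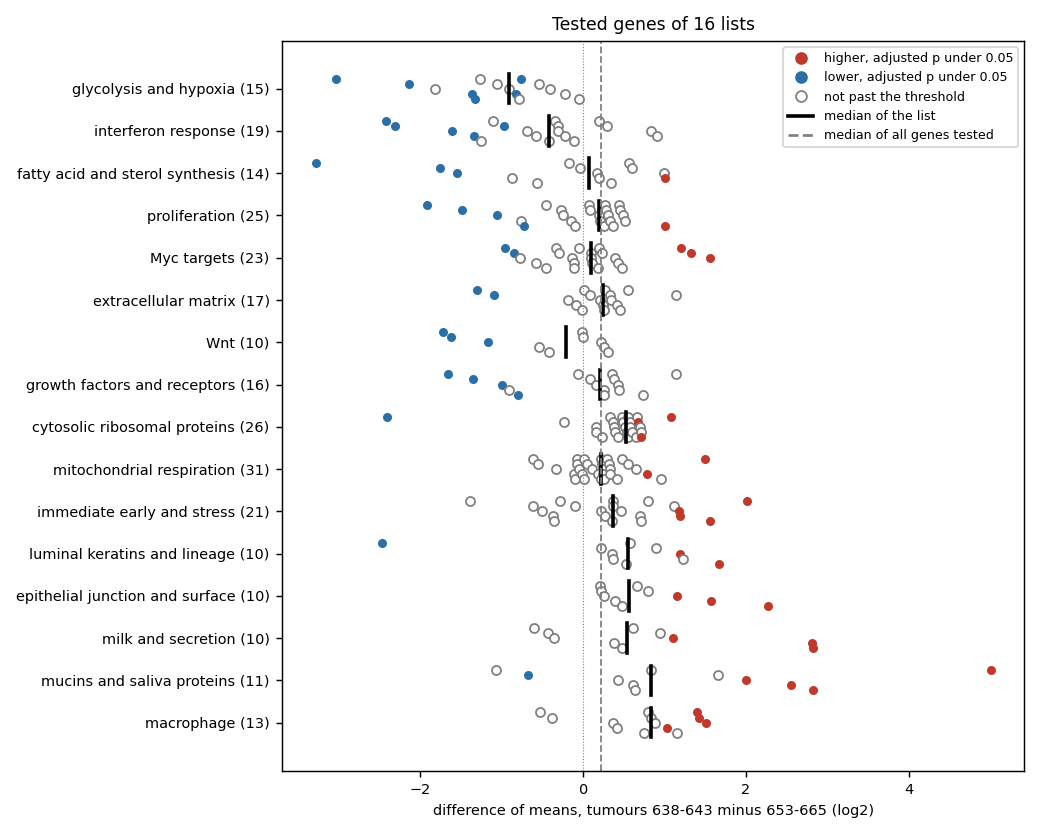
Difference of group means (x axis, log2, tumours 638 to 643 minus 653 to 665) for each tested gene of 16 lists (y axis, number of tested genes in brackets); filled points passed the test, open points did not, black bars are list medians and the dashed line is the median over all genes tested (0.21). Glycolysis and hypoxia genes lie to the left with a median of -0.91, and macrophage and saliva genes lie to the right with medians of 0.84 and 0.83.

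Markers of immune cells differed by cell type. S100a8, a subunit of the calprotectin complex that neutrophils hold in large amounts and that some epithelia also make, had the smallest p of all probes. S100a8 was 0.42 in tumour 638, -0.60 in 639, -1.01 in 640, -2.07 in 641 and -0.55 in 643, and ran from 2.92 in tumour 664 to 4.75 in tumour 660 with a median of 3.71 in 7 tumours of the second group, with tumour 656 missing because 1 of its arrays was blank. All 7 stood well above the first group, and the difference was -4.46 ± 0.38 (adjusted p = 4.19e-05), a 22.0-fold lower level. Cpa3, a mast cell protease, was the only other tested gene of 12 neutrophil and mast cell markers on the array, at 0.18 ± 0.44 (adjusted p = 0.802). The change in S100a8 is therefore that of 1 gene, and whether it comes with neutrophils was not tested.

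Of 13 tested macrophage markers, 4 were higher and none lower, beside 11.0% of all genes called higher, and the median difference was 0.84. Without centring 9 were called higher, as were 3791 of all 7766 probes. Mpeg1, a pore-forming protein of phagocytes, was 1.26 in tumour 638, 1.91 in 639, 1.61 in 640, 1.81 in 641 and 1.21 in 643, and ran from -0.50 in tumour 655 to 0.95 in tumour 662 with a median of 0.055 in 7 tumours of the second group, with tumour 663 missing, without overlap (difference 1.42 ± 0.26, adjusted p = 0.00231). Tyrobp, a signalling adaptor of myeloid receptors, was 0.24 in tumour 638, 1.34 in 639, 0.80 in 640, 1.06 in 641 and 0.0005 in 643, and it ran from -1.48 in tumour 663 to -0.026 in tumour 662 with a median of -0.75 in the 8 tumours. Tyrobp did not overlap, although tumours 643 and 662 were close (difference 1.40 ± 0.29, adjusted p = 0.00448). The lysozyme genes Lyz1 and Lyz2, whose transcripts are alike in sequence so that their probes may share signal, differed by 1.51 ± 0.35 (adjusted p = 0.00871) and 1.03 ± 0.25 (adjusted p = 0.0109). Of the 2 Lyz2 probes 1 passed, at 1.74 ± 0.27 (adjusted p = 0.00146), and the other did not, at 0.59 ± 0.23 (adjusted p = 0.0734). Cd68, C1qa and Ctss did not pass, at 0.89 ± 0.44 (adjusted p = 0.172), 0.84 ± 0.40 (adjusted p = 0.150) and 1.15 ± 0.45 (adjusted p = 0.0813). The mean over those of the 13 markers measured in each tumour ran from -0.22 to 0.65 in the first group. In the second group it ran from -1.21 to 0.043, so the groups overlap. Lcp1, an actin-bundling protein of leukocytes, and Sirpa, an inhibitory receptor of myeloid cells, were among the 12 genes with the largest upward differences, at 2.04 ± 0.51 (adjusted p = 0.0102) and 2.10 ± 0.51 (adjusted p = 0.00938), and their values in tumour 656, 1.27 and 0.57, lay among or above those of the first group.

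Other cell types left few calls, set beside 11.0% of all genes called higher and 8.09% called lower. Cd7, a T and NK cell surface protein, was higher by 0.89 ± 0.25 (adjusted p = 0.0221), while Cd8a and Cd8b1 did not pass, at -0.34 ± 0.49 (adjusted p = 0.662) and 0.41 ± 0.22 (adjusted p = 0.189). Within slide run 3 the difference in Cd7 was -0.43, the opposite sign. Tie1, a receptor of vessel cells, was higher by 1.42 ± 0.35 (adjusted p = 0.0129), and Kdr and Flt1 did not pass, at 0.73 ± 0.29 (adjusted p = 0.0831) and 0.052 ± 0.27 (adjusted p = 0.914). Cldn5 had the largest difference of the endothelial list, 1.44, and did not pass. All 4 tested endothelial genes had positive differences, with a median of 1.07 beside 0.21 over all genes. Of 9 fibroblast and mesenchyme genes, Cdh11, a cadherin of mesenchymal cells, fell by 1.22 ± 0.25 (adjusted p = 0.00448), and Col1a1 and Dcn did not pass, at -0.19 ± 0.33 (adjusted p = 0.711) and 0.45 ± 0.38 (adjusted p = 0.428). No adipocyte or muscle gene passed among the 5 and 2 tested, with Pparg and Lipe at 1.19 ± 0.54 (adjusted p = 0.131) and 0.47 ± 0.21 (adjusted p = 0.125), and Des and Acta1 at -1.15 ± 0.91 (adjusted p = 0.388) and -0.64 ± 0.98 (adjusted p = 0.678). Of 2 tested red blood cell genes, Car2, a carbonic anhydrase also made outside red cells, rose by 1.21 ± 0.27 (adjusted p = 0.00643), and Epb42 did not pass, at 0.75 ± 0.37 (adjusted p = 0.165). Ighm, the only tested B cell gene, was at -0.40 ± 0.54 (adjusted p = 0.634). Scgb1a1, the only tested gene of a list for lung and lymph node stroma, was at 0.64 ± 0.28 (adjusted p = 0.113). The squamous keratin Krt16 fell by 0.73 ± 0.24 (adjusted p = 0.0418), a call that was lost when any 1 of 10 tumours was left out, and Ncam1, the 1 called gene of 3 nerve and glia markers, fell by 1.65 ± 0.37 (adjusted p = 0.00726).

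Of 14 tested fatty acid and sterol genes 3 fell and 1 rose, beside 8.09% of all genes called lower and 11.0% called higher. In this list 7 differences were positive and 7 negative, and the median difference was 0.067. Scd1, which desaturates stearic acid, was -0.39 in tumour 638, -1.23 in 639, -1.34 in 640, -2.39 in 641 and -0.019 in 643. In the 8 tumours Scd1 ran from -0.22 in tumour 656 to 2.76 in tumour 664 with a median of 2.61 and all of them but 656 lay between 2.22 and 2.76. Tumour 656, at -0.22, fell inside the first group, and the difference was -3.28 ± 0.49 (adjusted p = 0.00138). Fasn, the fatty acid synthase, was -0.55 in tumour 638, 0.28 in 640, -1.06 in 641 and -0.25 in 643, with tumour 639 missing, and it ran from 0.95 in tumour 653 to 1.75 in tumour 655 with a median of 1.40 in the second group without overlap, tumour 656 included (difference -1.76 ± 0.27, adjusted p = 0.00184). Fasn in tumour 639 had 1 array at the top value, and with that value kept as a number the difference was 0.054 (adjusted p = 0.981). Srebf1, the transcription factor that controls these enzymes, was 0.029 in tumour 638, 1.40 in 639, 0.23 in 640, -0.88 in 641 and -0.43 in 643, and it ran from 0.94 in tumour 662 to 2.05 in tumour 656 with a median of 1.76. Tumours 639, 662 and 663 overlapped, and the difference was -1.56 ± 0.33 (adjusted p = 0.00490). Idi1, an isomerase of the sterol branch, rose by 1.01 ± 0.26 (adjusted p = 0.0167). Acaca, the first committed enzyme of the pathway, and Acly did not pass, at -0.88 ± 0.53 (adjusted p = 0.248) and -0.039 ± 0.30 (adjusted p = 0.942), and neither did Me1 and Scd2, at -0.57 ± 0.38 (adjusted p = 0.308) and 0.34 ± 0.31 (adjusted p = 0.451).

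All 15 tested glycolysis and hypoxia genes had negative differences, 6 passed the test, and the median was -0.91 beside 0.21 over all genes, of which 8.09% were called lower. The count was 3 without centring, where 438 of all 7766 probes were called lower. It was 1 with slide run as a block, where 43 of all 7766 probes were called lower. Of the 6 genes, 4 follow the Gapdh control spots described below. Bnip3, a mitochondrial protein induced by low oxygen, was -3.53 in tumour 638, -2.82 in 639, -4.23 in 640, -3.73 in 641 and -4.16 in 643. In the second group Bnip3 ran from -3.05 in tumour 656 to 0.45 in tumour 663 with a median of -0.37, and the 7 tumours other than 656 lay at or above -1.03 (difference -3.04 ± 0.46, adjusted p = 0.00146). Ddit4, an inhibitor of mTORC1 induced by stress and low oxygen, was -0.59 in tumour 638, -0.37 in 639, -0.54 in 640, -0.53 in 641 and -1.25 in 643. Ddit4 ran from -0.95 in tumour 656 to 2.47 in tumour 663 with a median of 1.74 in the second group, all but tumour 656 at or above 1.55 (difference -2.14 ± 0.43, adjusted p = 0.00350). Pgk1, a glycolytic kinase, and Vegfa, the growth factor of vessels, differed by -1.37 ± 0.34 (adjusted p = 0.0118) and -1.33 ± 0.34 (adjusted p = 0.0146). The phosphofructokinase genes Pfkp and Pfkl, named after their values were seen, differed by -0.76 ± 0.20 (adjusted p = 0.0172) and -0.83 ± 0.25 (adjusted p = 0.0319). Tumour 656 lay within or beyond the first group for Bnip3, Ddit4, Pgk1 and Vegfa. Without it 11 genes of the list were called lower, as were 1069 of all 8283 probes, beside 812 of 7766 with it.

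The control spots for Gapdh, itself a glycolytic enzyme, moved together with many other probes. The mean of 232 Gapdh spots was -1.43 in tumour 638, -0.38 in 639, -0.84 in 640, -0.50 in 641 and -1.67 in 643, and it ran from -0.14 in tumour 656 to 1.45 in tumour 663 with a median of 0.58 in the second group, without overlap (difference -1.56 ± 0.29, adjusted p = 0.00201). Over all 21 tumours, 272 other tested probes correlated with these spots at 0.9 or more. Their median lay close to the spots, which follows in part from that choice, at -1.34 beside -1.43 in tumour 638 and 1.32 beside 1.45 in tumour 663. They include Crx, a photoreceptor transcription factor, and Tdg, a DNA repair glycosylase, with correlations of 0.996 and 0.998. Over the 8 tumours outside both groups, 227 of these probes had a median correlation of 0.97 with the spots, beside 0.27 for 4978 other probes. These 8 were among the 21 tumours used to choose the probes, so the high value follows in part from the choice. It is a description of probes that share arrays. Of the 812 lower calls, 269 were such probes, which is 33.1%, a count that follows from choosing them by a quantity that itself differs between the groups. Bnip3, Ddit4, Pgk1 and Pfkp of the glycolysis list, Ifit3 of the interferon list, Kif11 and Rrm1 of the proliferation list, Ncam1 and Rab22a are among them, whereas Vegfa (correlation 0.86) and Pfkl (0.72) are not. Without these probes and the spots, 717 probes were called higher and 494 lower, and the genes called lower numbered 2 in the glycolysis and hypoxia list, 3 in the interferon list and 2 in the proliferation list. What sets the shared course of these probes was not tested.

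**Figure D4:**
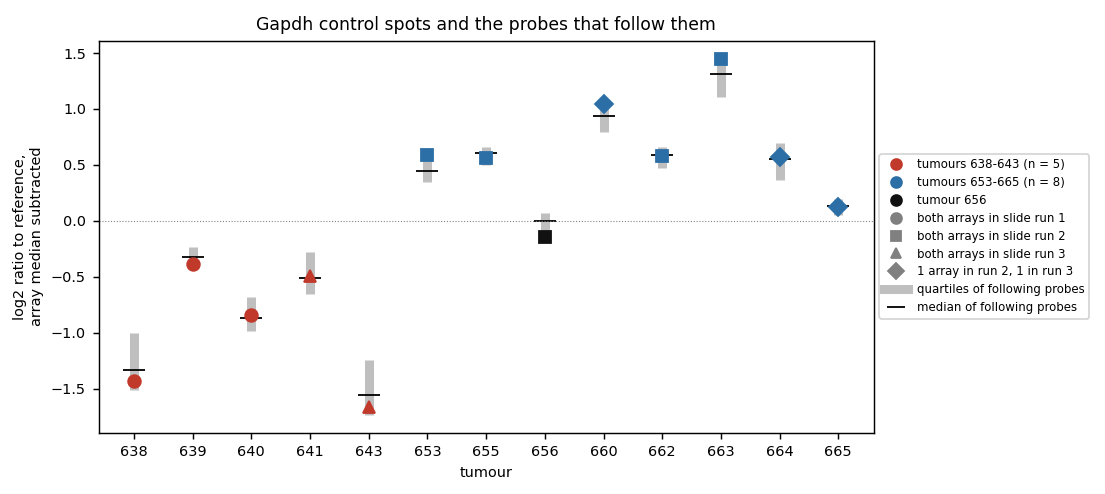
Mean of the Gapdh control spots (symbols) and the quartiles and median of the 272 probes that follow them (grey bars and black ticks) in each of 13 tumours, as log2 ratio to the reference after subtraction of the array median; shapes give the slide run. The spots are between -1.67 and -0.38 in tumours 638 to 643 and between -0.14 and 1.45 in tumours 653 to 665.

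Promoters were read for the glycolysis and hypoxia genes that fell. The core of the site bound by hypoxia-inducible factors, ACGTG, was searched on both strands in the 250 bases before each annotated start site, in RefSeq sequence of build GRCm38.p6. It was present for 4 of the 6 genes called lower, for 5 of 7 other tested genes of the list with a promoter sequence and in 16.6% of 32851 promoters. A gene counted when any of its start sites had a match, and by that count the share was 18.5% of 27025 genes. Vegfa had a match at start site 2 and none at start site 1. The sequences of Bnip3 (chr7:138909507-138909756, minus strand) and Ddit4 (chr10:59951771-59952020, minus strand), the members with the largest differences, are shown in the direction of transcription with each match in capitals.
Bnip3: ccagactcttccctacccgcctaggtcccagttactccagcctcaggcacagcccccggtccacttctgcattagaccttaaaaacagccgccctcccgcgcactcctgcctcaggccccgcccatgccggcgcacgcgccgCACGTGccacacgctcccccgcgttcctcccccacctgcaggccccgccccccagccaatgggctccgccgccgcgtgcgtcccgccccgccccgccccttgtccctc
Ddit4: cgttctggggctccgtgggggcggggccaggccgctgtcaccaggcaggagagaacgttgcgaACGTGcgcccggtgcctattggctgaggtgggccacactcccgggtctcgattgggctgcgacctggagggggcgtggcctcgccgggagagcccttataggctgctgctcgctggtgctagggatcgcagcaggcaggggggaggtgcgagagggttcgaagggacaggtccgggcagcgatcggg
In Bnip3 the match reads the same on both strands, so the 2 overlapping matches form 1 run of capitals. A match is a description of the sequence only.

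Of 19 tested interferon-induced genes 5 were lower and none higher, beside 8.09% of all genes called lower, with a median difference of -0.41. Without centring 3 were called lower, as were 438 of all 7766 probes. With slide run as a block 1 was called lower, beside 43 of all 7766 probes. Isg15, a ubiquitin-like modifier, was -1.73 in tumour 638, -0.0035 in 639, -0.14 in 640, 0.074 in 641 and -0.77 in 643. In 7 tumours of the second group, with tumour 656 missing, Isg15 ran from 1.12 in tumour 663 to 2.49 in tumour 653 with a median of 1.96, without overlap (difference -2.42 ± 0.33, adjusted p = 0.00101). Ifit1, which binds foreign RNA, was 0.41 in tumour 639, 0.33 in 640, -0.34 in 641 and -0.97 in 643, with tumour 638 missing, and it ran from 0.68 in tumour 663 to 1.90 in tumour 653 with a median of 1.13 in 7 tumours, with 656 missing, again without overlap (difference -1.35 ± 0.31, adjusted p = 0.00908). Ifit3, a partner of Ifit1, and Tap1, a peptide transporter for antigen presentation, differed by -1.62 ± 0.28 (adjusted p = 0.00198) and -2.31 ± 0.42 (adjusted p = 0.00262), Tap1 with tumours 639 and 656 missing. Stat2, a transcription factor of the pathway, named after its values were seen, passed at -0.98 ± 0.33 (adjusted p = 0.0480). Mx1, Irf7 and Oas1a had negative differences that did not pass, at -1.11 ± 0.40 (adjusted p = 0.0637), -1.26 ± 0.71 (adjusted p = 0.219) and -0.68 ± 0.53 (adjusted p = 0.375), and Ifi35 and Ifit2 had positive ones, at 0.90 ± 0.57 (adjusted p = 0.270) and 0.84 ± 0.64 (adjusted p = 0.367).

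Antigen presentation genes went both ways. H2-D1 and H2-Q7, class I heavy chains of a family with closely similar members whose probes may share signal, fell by 1.25 ± 0.38 (adjusted p = 0.0309) and 1.27 ± 0.39 (adjusted p = 0.0341). H2-D1 was -0.25 in tumour 638, -0.29 in 639, -0.37 in 640, -0.054 in 641 and -0.37 in 643, and it ran from -1.13 in tumour 656 to 1.67 in tumour 653 with a median of 1.28, with all tumours of the second group but 656 at or above 0.66. Both calls depended on the tumours used: they were lost when any 1 of 9 and of 10 tumours was left out. Cd74, the invariant chain of class II, rose by 0.92 ± 0.28 (adjusted p = 0.0347) and was lost without any 1 of 7 tumours. Tumour 656 was the lowest of the 13 in the mean over the interferon genes (-1.43) and over the antigen presentation genes (-2.21). Without it 9 interferon genes were called lower, as were 1069 of all 8283 probes, beside 812 of 7766 with it. Each mean was over the genes measured in that tumour. Isg15, Ifit1 and Tap1 were missing in tumour 656, so its interferon mean covers other genes than those of other tumours.

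The interferon-stimulated response element was searched as GAAA, any 2 bases and GAAA again, on both strands of the 250 bases before the start site. It was present in 4 of the 5 genes called lower and in 3 of 10 other tested genes with a promoter sequence. Over all promoters the share was 2.98%, and over all genes, counted by any of their start sites, 3.46%. Promoters of Isg15 (chr4:156200819-156201068, minus strand) and Ifit1 (chr19:34640639-34640888, plus strand), which carry 3 and 2 matches and did not overlap between the groups, are shown in the direction of transcription with the matches in capitals.
Isg15: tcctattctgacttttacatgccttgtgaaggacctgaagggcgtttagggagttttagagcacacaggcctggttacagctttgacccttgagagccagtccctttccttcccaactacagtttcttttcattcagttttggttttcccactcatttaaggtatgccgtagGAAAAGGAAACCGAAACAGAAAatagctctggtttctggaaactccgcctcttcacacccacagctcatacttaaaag
Ifit1: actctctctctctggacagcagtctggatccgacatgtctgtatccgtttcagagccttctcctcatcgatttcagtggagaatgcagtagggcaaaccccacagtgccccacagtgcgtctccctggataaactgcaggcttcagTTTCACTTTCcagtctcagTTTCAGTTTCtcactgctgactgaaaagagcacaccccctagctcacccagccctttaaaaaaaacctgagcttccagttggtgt
The 3 matches of Isg15 overlap and form 1 run. In Ifit1 the capitals show the reverse complement of the motif, in 2 separate copies. Tap1 fell without a match in this window, and Oas1a, Rsad2 and Cxcl10 had a match without a call.

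Noncoding RNAs of the nucleus were among the probes that fell, and they are described by gene because no list of them was tested. Rnu11, the small nuclear RNA U11 of the minor spliceosome, was -4.74 in tumour 638, -1.39 in 639, -2.95 in 640, -2.01 in 641 and -1.71 in 643. In the second group it ran from -1.26 in tumour 653 to 4.03 in tumour 660 with a median of 2.35, so tumour 653 came close to tumour 639 but the groups did not overlap (difference -4.55 ± 0.75, adjusted p = 0.00154). Rnu3a, the small nucleolar RNA U3 of ribosomal RNA processing, was -0.60 in tumour 638, 0.24 in 639, -0.38 in 640, -1.10 in 641 and -0.28 in 643. Rnu3a ran from 0.73 in tumour 653 to 3.09 in tumour 660 with a median of 2.17, without overlap, and the difference was -2.61 ± 0.34 (adjusted p = 0.000789). Malat1, a long noncoding RNA of nuclear speckles that was named after its values were seen, had 3 probes, and all passed, with differences of -2.89 ± 0.46, -2.31 ± 0.31 and -2.01 ± 0.27 (adjusted p = 0.00154, 0.000876 and 0.000794). Tumour 653 was the lowest of the 8 tumours for Rnu11, Rnu3a and every Malat1 probe. These RNAs correlated with the Gapdh spots at 0.75 to 0.82, under the limit of 0.9.

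Lrmp, an endoplasmic reticulum membrane protein of lymphoid and other cells, came next after Rnu11 among the 12 genes with the largest downward differences. Lrmp was -0.47 in tumour 638, -0.53 in 639, -1.05 in 640, -1.74 in 641 and -0.48 in 643, and it ran from 0.20 in tumour 656 to 3.34 in tumour 660 with a median of 2.99, with all 8 tumours above the first group and 7 of them at or above 2.31 (difference -3.48 ± 0.45, adjusted p = 0.000707). Rwdd2b was 0.021 in tumour 638, 1.00 in 639, -0.30 in 640, -0.27 in 641 and 0.56 in 643, and it ran from 0.71 in tumour 653 to 4.53 in tumour 660 with a median of 3.65. Tumour 653 was the only one of the 8 within the first group, 656 stood with the rest, and the difference was -3.18 ± 0.48 (adjusted p = 0.00146). Ldlrad4 and Pmepa1, related membrane proteins that restrain TGF-beta signalling, differed by -3.01 ± 0.72 (adjusted p = 0.00829) and -2.77 ± 0.60 (adjusted p = 0.00446). Ldlrad4 was widely spread in the first group, from -2.09 in tumour 638 to 1.97 in tumour 641. Ahnak, a very large scaffold protein, was -3.22 in tumour 638, -1.38 in 639, -2.44 in 640, -3.08 in 641 and -2.84 in 643, and it ran from -1.10 in tumour 656 to 0.70 in tumour 663 with a median of -0.13 without overlap (difference -2.42 ± 0.33, adjusted p = 0.000855). Of 4 Ahnak probes, another passed, at -2.59 ± 0.48, and the remaining 2 did not, at -0.45 ± 0.61 and -1.50 ± 0.60. Cstf1, a polyadenylation factor subunit, and Rab22a, an endosomal GTPase, differed by -2.52 ± 0.67 (adjusted p = 0.0153) and -2.38 ± 0.39 (adjusted p = 0.00154). In tumour 656 Cstf1 was -1.82, below every other tumour, while the other 7 lay between 2.39 and 3.53.

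Of 23 tested Myc targets 3 rose and 2 fell (median 0.092), close to the 11.0% called higher and 8.09% called lower among all genes. Odc1, the first enzyme of polyamine synthesis, was 1.03 in tumour 638, 0.73 in 639, 0.49 in 640, 0.86 in 641 and 0.004 in 643, and it ran from -1.61 in tumour 665 to -0.21 in tumour 663 with a median of -0.92, without overlap (difference 1.55 ± 0.28, adjusted p = 0.00202). Nme1, a nucleoside diphosphate kinase, and Shmt1, a folate enzyme, were higher by 1.20 ± 0.22 (adjusted p = 0.00229) and 1.32 ± 0.26 (adjusted p = 0.00339). Ncl, nucleolin, fell by 0.96 ± 0.23 (adjusted p = 0.00908) as the mean of 2 probes, which disagreed, at -1.91 ± 0.36 and -0.011 ± 0.27. Among 25 proliferation genes 1 rose and 4 fell, beside the same 11.0% and 8.09%, and 15 differences were positive and 10 negative. Cenpa, the centromeric histone, was higher by 1.00 ± 0.24 (adjusted p = 0.00915), Kif11, a spindle motor, differed by -1.49 ± 0.25 (adjusted p = 0.00184), and Aurka, a mitotic kinase, by -1.92 ± 0.57 (adjusted p = 0.0277). Rrm2, a subunit of ribonucleotide reductase, differed by -1.05 ± 0.33 (adjusted p = 0.0360). Aurka and Rrm2 were lost without any 1 of 5 and of 11 tumours.

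Cytosolic ribosomal protein genes had 24 of 26 positive differences (median 0.53), of which 3 passed, and 1 gene fell. Counts in this and the mitochondrial list stand beside 11.0% of all genes called higher and 8.09% called lower. Rpl8 was higher by 1.08 ± 0.24 (adjusted p = 0.00670), and Rps2 and Rpl22 by 0.71 ± 0.24 (adjusted p = 0.0455) and 0.68 ± 0.23 (adjusted p = 0.0485), calls that were lost without any 1 of 9 and of 10 tumours. Rpl32 went against the list and was -0.69 in tumour 638, -0.84 in 639, -1.22 in 640, -0.96 in 641 and -0.66 in 643, whereas it ran from -0.84 in tumour 653 to 3.42 in tumour 656 with a median of 1.43 in the second group (difference -2.41 ± 0.52, adjusted p = 0.00446). Tumour 653 was the only one of the 8 within the first group. This list depends on centring: without it 24 ribosomal genes were called higher, as were 3791 of all 7766 probes. Of 31 mitochondrial respiration genes 2 rose, Ndufb9 by 1.50 ± 0.24 (adjusted p = 0.00184) and Ndufa2 by 0.78 ± 0.26 (adjusted p = 0.050), both of complex I. Ndufa2 was lost without any 1 of 11 tumours, and 25 genes of that list were called higher without centring.

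Among 21 immediate early and stress genes 4 rose and none fell, beside 11.0% of all genes called higher. The count without centring was 12, where 3791 of all 7766 probes were called higher. Egr1, a zinc finger factor induced within minutes of growth signals, was -1.55 in tumour 638, -1.70 in 639, -1.61 in 640, -1.88 in 641 and -1.87 in 643, and it ran from -3.87 in tumour 656 to -2.45 in tumour 662 with a median of -3.38 in 6 tumours of the second group, with tumours 660 and 664 missing, without overlap (difference 1.56 ± 0.26, adjusted p = 0.00202). Nr4a1, an orphan nuclear receptor induced in the same way, and Hspb1, a small heat shock protein, were higher by 2.02 ± 0.43 (adjusted p = 0.00609) and 1.17 ± 0.27 (adjusted p = 0.00890), and Xbp1 is the fourth. With top values kept, Egr1 and Nr4a1 did not pass, at adjusted p = 0.125 and 0.120.

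Calls in the signalling lists are set beside 11.0% of all genes called higher and 8.09% called lower. Of 10 tested Wnt genes 3 fell and none rose, with 4 positive and 6 negative differences. Sfrp2, a secreted Wnt antagonist, was -2.06 in tumour 638, -3.29 in 639, -2.04 in 641 and -2.24 in 643, and it ran from -1.58 in tumour 664 to -0.44 in tumour 653 with a median of -0.74 in 7 tumours of the second group, without overlap, tumours 640 and 656 being missing (difference -1.62 ± 0.30, adjusted p = 0.00275). Ctnnb1, beta-catenin, differed by -1.73 ± 0.40 (adjusted p = 0.00800), and Lrp6, a Wnt co-receptor, by -1.16 ± 0.36 (adjusted p = 0.0349). Of 16 growth factor and receptor genes 4 fell: Igf2r, which clears Igf2, by 1.66 ± 0.36 (adjusted p = 0.00602), Igfbp5, an Igf-binding protein, by 1.00 ± 0.24 (adjusted p = 0.0100), Pdgfb by 1.35 ± 0.33 (adjusted p = 0.0107) and Pdgfa by 0.80 ± 0.26 (adjusted p = 0.0428). Pdgfa was lost without any 1 of 8 tumours. The 16 genes had 10 positive and 6 negative differences, with a median of 0.21 beside 0.21 over all genes. The 11 tested TGF-beta and BMP genes had 8 positive and 3 negative differences, with a median of 0.45. Of these 1 rose: Smad4, the shared Smad, by 0.98 ± 0.27 (adjusted p = 0.0190). Of 6 tested genes in the Notch and Hedgehog list Lfng, which modifies Notch, rose by 1.22 ± 0.33 (adjusted p = 0.0198) and Notch2 fell by 0.93 ± 0.27 (adjusted p = 0.0272).

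Matrix and remaining lists had few calls, set beside 11.0% of all genes called higher and 8.09% called lower. Fn1, fibronectin, fell by 1.30 ± 0.33 (adjusted p = 0.0127) and Thbs1, thrombospondin, by 1.10 ± 0.27 (adjusted p = 0.0118), out of 17 matrix genes with a median of 0.25. Of the 2 Fn1 probes 1 passed, at -1.72 ± 0.29 (adjusted p = 0.00160), and the other did not, at -0.89 ± 0.43 (adjusted p = 0.154). Plat, tissue plasminogen activator, fell by 1.51 ± 0.39 (adjusted p = 0.0150) as 1 of 12 protease genes, and Ccl2, a monocyte chemokine, fell by 1.32 ± 0.27 (adjusted p = 0.00390) as 1 of 6 chemokine genes. Of 14 apoptosis and p53 genes Sesn2 and Cdkn1a, both induced by p53, fell by 2.44 ± 0.64 (adjusted p = 0.0204) and 1.40 ± 0.47 (adjusted p = 0.0462). Cdkn1a was lost without any 1 of 10 tumours. Slc7a1, an arginine transporter, and Slc25a1, the mitochondrial citrate carrier, fell by 1.97 ± 0.47 (adjusted p = 0.0103) and 0.91 ± 0.23 (adjusted p = 0.0141) out of 12 solute carriers. The glutathione transferases Gsta4 and Gstm5, enzymes of a family with similar members, rose by 0.73 ± 0.22 (adjusted p = 0.0331) and 0.66 ± 0.21 (adjusted p = 0.0423) out of 15 detoxification genes, and were lost without any 1 of 6 and of 11 tumours. Peg3, an imprinted gene, fell by 0.91 ± 0.25 (adjusted p = 0.0208), and none of 6 homeobox genes passed, with Irx5 and Hoxa4 nearest at -0.66 ± 0.29 (adjusted p = 0.125) and 1.02 ± 0.47 (adjusted p = 0.140). Leaving out 1 tumour also ended the calls of Idi1 and Plat (1 tumour each), Lfng, Peg3, Perp and Smad4 (2 each), Cd7 and Sesn2 (3 each), in every case one of tumours 638 to 641, and those of Notch2 (5 tumours) and Lrp6 (7). With top values kept, Sesn2, Ncam1, Car6 and Gfpt2 did not pass, at adjusted p = 0.598, 0.144, 0.0631 and 0.0510. Over all lists, 82 of 399 tested genes passed beside 19.1% of all genes, and 30 did not overlap between the groups (17 higher and 13 lower) beside 7.97% of all genes.

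Slide run was set against the calls. Tumours 638 to 640 alone against the 8 gave 1112 called probes, and tumours 641 and 643 alone gave 340, of which 34 were higher and 306 lower. With slide run as a block in a fit over arrays, 57 probes passed, 14 higher and 43 lower, and 1217 had an unadjusted p under 0.05. That fit has the array as its unit, and the estimated correlation between the arrays of a tumour was 0.017, so both arrays of a tumour counted almost as separate samples, unlike in the test over tumours. Among the compared tumours, slide run 1 holds only the first group and slide run 2 only the second. The block fit therefore draws its group difference almost entirely from the arrays of slide run 3. Within slide run 3, where the estimate rests on tumours 641 and 643 against 1 array each of tumours 660, 664 and 665, limma called none of 12208 probes, and 990 had an unadjusted p under 0.05. Of the 1634 called probes with a value there, 1602 (98.0%) had the same sign within slide run 3, 96.2% of those called higher and 99.9% of those called lower, as a description, since tumours 641, 643, 660, 664 and 665 also entered the calls. Each array of tumours 660, 664 and 665 was also set against calls made without its tumour. It lay nearer its own group at 87.4%, 83.3% and 66.3% of probes in run 2 and at 75.9%, 88.6% and 88.0% in run 3.

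Among the named genes, S100a8, Srebf1, Lrmp, Sec11c, Scd1, Atp1b1, Rwdd2b, Rab22a, Dcpp1, Ahnak, Rnu3a, Bnip3, Ifit1 and Lrp6 passed with slide run as a block. The block fit and the values within slide run 3 draw the group difference from the same arrays, so they are not separate evidence. S100a8 differed by -5.00 with tumours 641 and 643 alone (adjusted p = 0.00166) and by -5.80 within slide run 3, and its adjusted p with the block was 0.00593. Scd1 differed by -3.41 with tumours 641 and 643 alone and by -3.87 within slide run 3, with an adjusted p of 0.0225 with the block. For Dcpp1 these values were 3.27, 3.39 and 0.0372. Lpo, Csn3, Grhl2, Isg15, Tap1, Fasn, Igf2r, Ccl2, Slc7a1, Kif11 and Rnu11 passed with tumours 641 and 643 alone but not with the block, with differences within slide run 3 of 2.77, 1.32, 2.91, -2.56, -2.60, -2.60, -2.35, -1.71, -2.82, -1.60 and -4.70 in that order. Of the 4 called macrophage genes, Mpeg1, Tyrobp and Lyz2 were smaller within slide run 3, at 0.94, 0.68 and 0.85 beside 1.42, 1.40 and 1.03 in all 13 tumours, and Lyz1 was larger, at 1.75 beside 1.51. Cldn7 was at 0.58 beside 1.58.

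**Figure D5:**
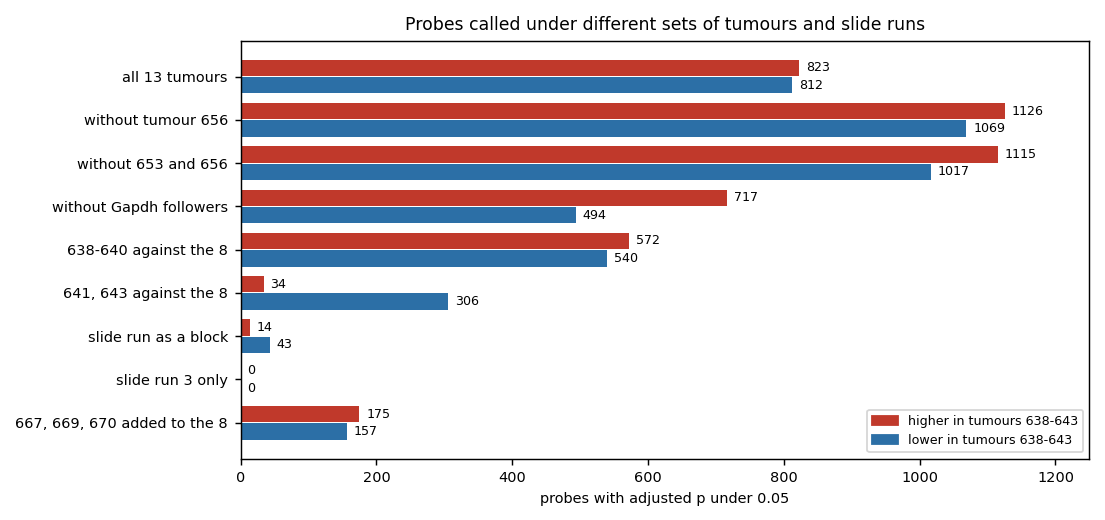
Number of probes with an adjusted p under 0.05 (x axis) that were higher (red) or lower (blue) in tumours 638 to 643, for different sets of tumours, probes and slide runs (y axis). All 13 tumours give 823 and 812, tumours 641 and 643 against the 8 give 34 and 306, slide run as a block gives 14 and 43, and slide run 3 alone gives 0 and 0.

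The low-Vim tumours outside both groups were placed on the same probes. Tumours 667 and 669 lay nearer tumours 638 to 643 at 70.6% of 1290 and 77.9% of 1589 called probes, and tumour 670 at 21.9% of 1540. Tumour 667 was divided by direction, at 91.4% of the lower and 52.4% of the higher calls. For Car6 these tumours were at 8.35, 7.24 and 1.96, for Bnip3 at -4.35, -3.24 and -0.60, for Scd1 at 0.018, -0.17 and 1.63, and for S100a8 at -1.95, 0.013 and 1.52. Tumours 667 and 669 thus lay with the first group for these genes and tumour 670 with the second or between the groups. Adding all of them to the second group left 332 called probes, 175 higher and 157 lower.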

How the data were processed

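Expression was measured on 42 cDNA arrays, 2 per tumour with the dyes swapped, from 21 tumours. The authors deposited log2 ratios, per the file headers and the values. Their normalization by the authors is not given in the sources used here. In all, the deposited table has 22800 probes, 24.1% of its cells are blank, and 15512 cells hold 16.61, the log2 of 100000, which was set missing. Each array was multiplied by -1 where the mean of Krt8, Hba-a1 and Dbi was negative, its median was subtracted, and the 2 arrays of a tumour were averaged, both being needed. The 232 Gapdh control spots were averaged to 1 value. Of the probes, 16874 have 1 gene symbol, 134 several and 5792 none in the platform annotation, and 16196 were matched to a current RefSeq gene. Probes with several symbols were not named.

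A probe was tested when it had a value in at least 4 of 5 and 6 of 8 tumours. The test was limma 3.58.1 in R 4.3.3 (two-sided, moderated, Benjamini-Hochberg over all probes or all genes, threshold 0.05), with the tumour as the unit, and the procedure was tested on simulated data. The groups came from the tumour numbers in the source names, and slide run from the array numbers in the titles. Named are the 12 genes with the largest difference in each direction among called probes with 1 symbol and a value in all 13 tumours, and genes of the lists. The members and lists were chosen with earlier results of these data known. Alternatives covered centring, the top value, orientation, filters, moderation, slide run and the tumours used. Gene values are means over the probes of a gene, so the adjusted p of a gene over genes can differ from that of its probe over probes; the 24 genes with the largest differences are given by probe, and the genes of lists by gene. Genes that share sequence with near copies may share probe signal. Of the tumours, 5 with higher Vim and tumours 667, 669 and 670 were left out of the main comparison because they belong to neither group.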

Additional observations from a re-analysis of the deposited data

Results flagged for a closer look

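In 228 sets of values (a gene in 1 of the groups), the highest or lowest tumour stood apart from the others by Dixon's criterion in 42, which is 18.4%, where chance gives about 1 in 20. Tumour 656 accounts for 28 of these.

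Among tumours 638 to 643, tumour 638 stood apart for Hspb1 at 2.66. Tumour 639 stood apart for Car6 at 4.20, Fn1 at -1.85 and Sfrp2 at -3.29. Tumour 643 stood apart for Ddit4 at -1.25 and Rpl22 at -0.28.

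Among tumours 653 to 665, tumour 656 was above the other tumours for Car6 at 10.52, Gfpt2 at 4.89, Gne at 4.66, Itgb4 at 2.90, Kit at 1.99, Selenop at 1.92 and Perp at 1.62. It was also above them for Myc at 3.33, Phlda1 at 3.30, Lcp1 at 1.27, Nr4a1 at 0.97, Ndufa2 at 0.48 and Gstm5 at 0.34. Tumour 656 was below the others for the hypoxia genes Bnip3 at -3.05, Pgk1 at -1.76, Vegfa at -1.52 and Ddit4 at -0.95, and for the class I genes H2-Q7 at -1.42 and H2-D1 at -1.13. It was below them too for Fn1 at -3.09, Cdkn1a at -2.50, Cstf1 at -1.82, Aurka at -1.35, Ctnnb1 at -0.83, Rab22a at -0.40, Scd1 at -0.22, Lrmp at 0.20 and Pmepa1 at 1.10.

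Tumour 653 was below the other 7 for Rwdd2b at 0.71, Rnu3a at 0.73 and the third Malat1 probe at -0.73, and stood apart for Cd74 at -1.68. Tumour 663 stood apart for Irx5 at 3.27. Tumour 664 stood apart for Hoxa4 at -2.91, Sfrp2 at -1.58 and Peg3 at -0.016.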

How the results depend on the processing

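Of 110 results for named genes, the number that kept direction and side of the threshold was 110 with orientation by the first eigenvector, 105 with trend and robust moderation, 104 with quantile normalisation, 95 with all 21 tumours in the fit, 93 without the filter, 92 with the top value kept, 86 without centring, 78 with tumour means from either array, 76 with tumours 638 to 640 only, 38 with tumours 667, 669 and 670 added, 25 with slide run as a block and 8 in slide run 3 only, and 36 of 107 with tumours 641 and 643 only. Counts of probes that differed, higher and lower were 1635, 823 and 812, and 82 list genes passed. They became 4229, 3791, 438 and 219 without centring, 857, 339, 518 and 52 with tumour means from either array, 332, 175, 157 and 17 with tumours 667, 669 and 670 added to the second group, 340, 34, 306 and 18 with tumours 641 and 643 only, and 57, 14, 43 and 8 with slide run as a block. Tumours 638 to 640 only gave 1112, 572, 540 and 53. In slide run 3 only, limma called 0 probes and 0 list genes, with 990 probes at an unadjusted p under 0.05. Probes averaged by gene gave 522 lower. Leaving out 1 tumour gave 1080 (without 640) to 2195 (without 656) probes, 436 to 1126 higher, 644 to 1069 lower and 59 to 123 list genes. The higher count was 448 without 638, 436 without 640 and 479 without 641. Chosen after seeing the data, leaving out the probes that follow Gapdh gave 494 lower, and leaving out tumours 653 and 656 gave 2132 probes.

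Signs reversed for Acta1 from -0.64 to 0.012 (either array), 0.025 (tumours 638 to 640 only) and 0.31 (without 641; -1.20 to 0.31 over single tumours left out), for Cd7 to -0.43 (slide run 3) and -0.46 (block), for Fasn to 0.054 (top value kept), for Ighm to 0.18 (no centring), 0.19 (slide run 3) and 0.14 (block), for Rps2 to -0.12 and -0.14, and for Scgb1a1 to -0.19 and -0.23 (slide run 3 and block). For these changes the cause was not tested. No paired analysis was possible because tumour numbers are not shared between the groups. Slide run and tumour group largely coincide: only 3 arrays of the second group share a run with tumours of the first. The number of tumours and blank cells limit the precision.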
